A study of Rattus norvegicus with 6 samples.

Results

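Genes that break down heme and scavenge hemoglobin were followed across 6 microarrays of rat brain. The list held 10 genes: Hmox1, Hmox2, Blvra, Blvrb, Hp, Hpx, Cd163, Lrp1, Slc48a1 and Flvcr1. They were found by matching the transcript accession of each probe to RefSeq. Of the 10, 9 had a probe (10 probes in all, since Blvrb had a pair), and no probe was matched to Flvcr1, which has no value here. All 9 passed the filter on dim probes and were well above background on 6 of 6 arrays. They are 9 of 22179 rows tested, a row being a gene symbol (12963 of them) or a probe without one.

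The arrays came from 3 sham-operated rats and 3 rats with a bleed into the brain, intracerebral hemorrhage (ICH), and each array held RNA of 1 biological replicate. The sham tissue is labelled brain and the ICH tissue peripheral brain tissue, which the series title places around the hematoma, so the tissue taken may not match between the groups. Every sample is labelled day 1, without a statement of what the day is counted from. Strain, sex, age of the animals, the way the bleed was made and any drug are not given in the sources used here. The design text calls the ICH replicates transfected, a word no sample label repeats.

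When red cells leave a vessel and lyse, hemoglobin is released and gives up heme, which promotes oxidation. Haptoglobin (Hp) binds free hemoglobin and the complex is taken up through the macrophage receptor CD163, while hemopexin (Hpx) binds free heme and is taken up through LRP1. HRG1, the product of Slc48a1, moves heme from the phagolysosome to the cytosol. Heme oxygenase, inducible (Hmox1) or constitutive (Hmox2), opens the heme ring to biliverdin, iron and carbon monoxide, and biliverdin reductases (Blvra, Blvrb) turn biliverdin into bilirubin. In rodent brain, heme oxygenase from Hmox1 is known to appear in microglia and macrophages near a hematoma.

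A level is given as the log2 of the background-subtracted signal relative to the 75th percentile of its array, and differences are ICH minus sham on the log2 scale, with their SE and n = 3 arrays per group. Levels of different probes are not compared with each other. Between 81.8% and 85.4% of spots were well above background on each array, 0 spots were saturated, and the number of arrays limits the precision. Neuron, astrocyte and oligodendrocyte markers such as Snap25, Aqp4 and Mbp were well above background on all arrays. The sham arrays lay close together, with correlations across genes of 0.985 to 0.991 and a median SD of 0.14. The ICH arrays lay apart, at 0.949 to 0.980 and a median SD of 0.31. ICH 3 lay near the sham arrays for several genes described here, so their differences are also given without it.

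Hmox1, Hpx and Cd163 showed the largest differences of the 9 genes, with high levels on ICH 1 and ICH 2 and sham-like levels on ICH 3. Over all 3 ICH arrays, Hmox1 averaged 3.72-fold, Hpx 3.25-fold and Cd163 2.23-fold of sham, and none passed the test after adjustment over all rows. Hmox2, Blvra, Hp, Lrp1 and Slc48a1 differed by 1.17-fold or less. Blvrb was a little higher on each ICH array, by 1.24-fold on average.

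**Figure D1:**
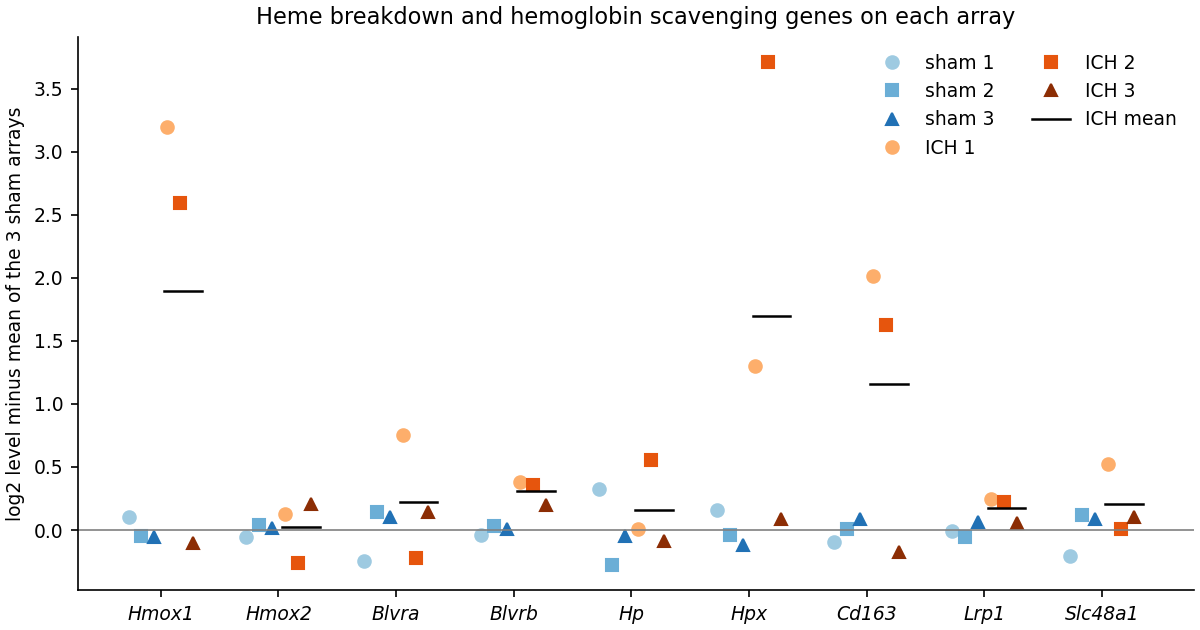
Log2 level of 9 genes on each of 6 arrays, minus the mean of the 3 sham arrays (y axis), with a black bar at the mean of the 3 ICH arrays. For Hmox1, Hpx and Cd163 the ICH 1 and ICH 2 points stand above all sham points and the ICH 3 point lies among or just below them; the other genes stay within 1 log2 unit of the sham mean.

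Hmox1 encodes the inducible enzyme that opens the heme ring. Its level was −2.20, −2.36 and −2.36 on sham 1, 2 and 3, and 0.89, 0.29 and −2.42 on ICH 1, 2 and 3. ICH 1 and ICH 2 were far above every sham array, and ICH 3 was just below the lowest of them, so the groups overlapped. As processed signal this was 1293, 1179 and 1112 on the sham arrays and 12029, 8101 and 1251 on the ICH arrays. Against the sham mean, ICH 1 stood at 9.16-fold, ICH 2 at 6.05-fold and ICH 3 at 0.929-fold. The sham values had an SD of 0.091, and the ICH values one of 1.76.

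The mean difference was 1.90 ± 0.83 on the log2 scale, with a 95% interval of −0.13 to 3.92 (limma, unadjusted p = 0.0617, adjusted p = 0.357). The interval includes 0, and the difference was not called, since its adjusted p was not under 0.05. The difference stood at the 99.5th percentile of the differences of all rows. Without ICH 3 it was 2.90 (limma adjusted p = 0.0446), and Hmox1 was then 1 of 36 rows called, or 0.162% of all. ICH 3 was singled out because genes such as Hmox1 were sham-like on it, so nothing is read from this p-value. Without ICH 1 the difference was 1.24 (adjusted p = 0.484), and without ICH 2 it was 1.54 (adjusted p = 0.400).

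The array carries this probe in 10 spots, whose SD was 0.028 to 0.111 on the 6 arrays. Spots of 1 array share a sample, so this SD covers the measurement on the array and not the spread between animals. None of the member spots carried a mark for non-uniform signal (0 spots).

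**Figure D2:**
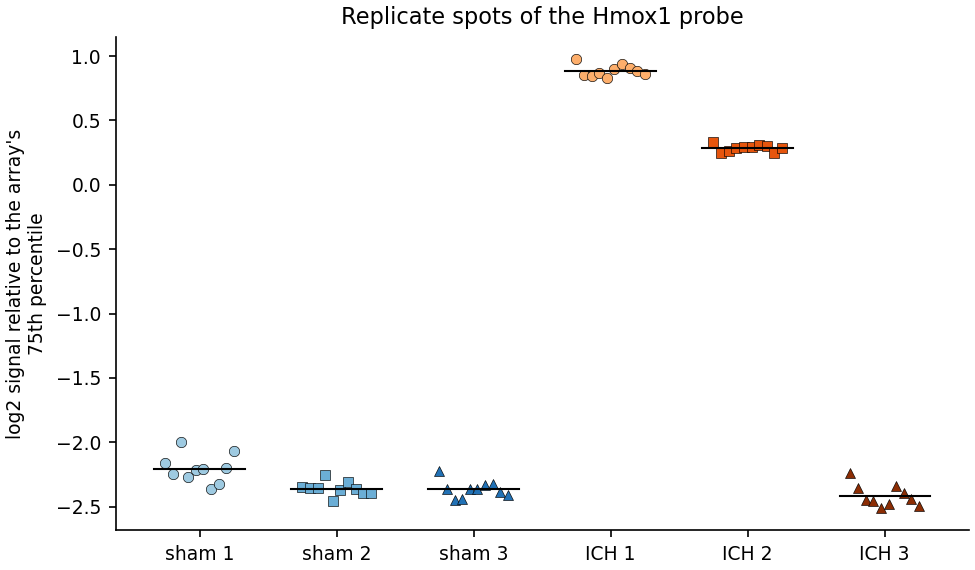
Log2 signal of the 10 replicate spots of the Hmox1 probe on each array, relative to the 75th percentile of that array (y axis), with a line at the mean of the spots. The spots of ICH 1 and ICH 2 form tight bands at 0.89 and 0.29, and those of ICH 3 lie at −2.42 beside the sham arrays.

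Hmox2, the constitutive heme oxygenase abundant in neurons, was at 0.55, 0.65 and 0.62 on the sham arrays and at 0.74, 0.35 and 0.81 on ICH 1, 2 and 3. ICH 2 was the lowest and ICH 3 the highest of the 6 arrays, so the groups overlapped. The difference was 0.025 ± 0.16, with an interval of −0.37 to 0.42, or 0.773-fold to 1.34-fold (limma adjusted p = 0.947). A change beyond that range is outside the 95% interval, and a smaller one was not detectable with these arrays.

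Biliverdin reductase A (Blvra) makes most of the bilirubin of adult mammals. Its level was −0.68, −0.29 and −0.33 on the sham arrays and 0.32, −0.66 and −0.29 on the ICH arrays. Only ICH 1 lay above the sham range, and the groups overlapped, with a difference of 0.22 ± 0.27 (adjusted p = 0.693).

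Biliverdin reductase B (Blvrb), which also reduces flavins, was at 0.62, 0.69 and 0.67 on the sham arrays and at 1.04, 1.02 and 0.86 on the ICH arrays. Blvrb was the 1 gene of the 9 whose groups did not overlap, beside 11.0% of all rows that lay wholly higher in ICH and 16.5% wholly lower. Its difference was 0.31 ± 0.12, or 1.24-fold (unadjusted p = 0.0428, limma adjusted p = 0.335). This value rests on 1 spot per array. The second Blvrb probe, printed in a pair of spots, read 0.27, 0.35 and 0.30 on sham and 0.64, 0.12 and 0.43 on ICH 1, 2 and 3. There ICH 2 was the lowest array and the groups overlapped, with a difference of 0.083 ± 0.17 (adjusted p = 0.817 in the fit over all probes). Both probes put ICH 1 above the sham arrays, and they disagreed on ICH 2.

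Haptoglobin (Hp), the hemoglobin-binding protein best known from liver, was at −0.18, −0.78 and −0.55 on the sham arrays and at −0.50, 0.056 and −0.59 on the ICH arrays. ICH 2 was the highest array, and ICH 1 and ICH 3 lay within the sham range. The difference of 0.16 ± 0.24 was smaller than the sham SD of 0.31 (adjusted p = 0.752).

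Hemopexin (Hpx), which binds free heme, gave a dim but detected signal. Its level was −6.10, −6.30 and −6.38 on the sham arrays and −4.96, −2.55 and −6.17 on ICH 1, 2 and 3. The processed signal was 86.7, 76.8 and 68.7 on sham, and 209, 1135 and 92.6 on ICH. ICH 2 led by a wide margin at 13.1-fold of the sham mean, ICH 1 stood at 2.46-fold, and ICH 3 at 1.06-fold lay within the sham range. The difference was 1.70 ± 0.87 (unadjusted p = 0.0977, limma adjusted p = 0.400) from 1 spot per array. It was 2.51 without ICH 3 (adjusted p = 0.169) and 0.70 without ICH 2 (adjusted p = 0.345), so most of it came from ICH 2. With normexp background correction it was 1.11.

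Cd163 encodes the macrophage receptor for haptoglobin bound to hemoglobin. Its level was −4.53, −4.43 and −4.35 on the sham arrays and −2.42, −2.81 and −4.61 on ICH 1, 2 and 3. The processed signal was 258, 281 and 281 on sham and 1218, 947 and 273 on ICH. ICH 1 at 4.05-fold and ICH 2 at 3.08-fold of the sham mean were above every sham array, and ICH 3 at 0.886-fold was below all of them. The difference was 1.16 ± 0.56 (unadjusted p = 0.0832, limma adjusted p = 0.383). It was 1.82 without ICH 3 (adjusted p = 0.0599), 0.72 without ICH 1 and 0.92 without ICH 2. In bulk tissue, more cells of a type and more RNA per cell cannot be told apart.

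The promoters of Hpx and Cd163 are shown because these are the scavenging genes more than 2-fold higher on average. Windows of 250 bases before the start, from the RefSeq table of assembly GRCr8, were present for 7 of the 10 genes (8 windows). Capitals mark matches to the searched motifs.
Hpx, chr1:169352156-169352405, minus strand: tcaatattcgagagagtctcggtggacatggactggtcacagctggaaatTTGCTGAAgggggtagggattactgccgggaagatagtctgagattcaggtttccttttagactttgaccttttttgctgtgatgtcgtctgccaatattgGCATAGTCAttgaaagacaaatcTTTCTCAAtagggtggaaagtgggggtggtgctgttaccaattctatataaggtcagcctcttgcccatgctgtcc
Cd163, chr4:158770524-158770773, plus strand: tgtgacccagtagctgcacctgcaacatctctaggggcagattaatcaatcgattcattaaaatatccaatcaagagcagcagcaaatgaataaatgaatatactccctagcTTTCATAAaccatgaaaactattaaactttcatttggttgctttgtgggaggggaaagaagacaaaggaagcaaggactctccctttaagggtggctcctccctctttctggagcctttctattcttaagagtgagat

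The motifs, searched on both strands, were TGACNNNGC (antioxidant response element core), TGANTCA (AP-1), CACGTG (E-box), GAANNTTC (heat shock element), TTCNNNGAA (STAT) and TTNNGNAA (C/EBP). Counted from the start, Hpx held C/EBP matches at −200 to −193 and −76 to −69 and an antioxidant response element core at −99 to −91, none overlapping another. Cd163 held a C/EBP match at −138 to −131. Genes that differed little held such matches too: an antioxidant response element core lay at −145 to −137 in Blvra and at −95 to −87 in 1 of the Hmox2 windows, and the other Hmox2 window held C/EBP and STAT matches. Flvcr1 held a STAT match, and the windows of Blvrb and Lrp1 held 0 matches. A C/EBP match is found in 37.2% of 33469 promoter windows and an antioxidant response element core in 10.1%, so the matches are common. The others are found in 6.34% (AP-1), 5.59% (E-box), 7.23% (heat shock element) and 7.67% (STAT).

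Lrp1, the receptor for hemopexin bound to heme and for many other ligands, was at 0.61, 0.57 and 0.68 on the sham arrays and at 0.87, 0.84 and 0.68 on the ICH arrays. ICH 1 and ICH 2 were above the sham range and ICH 3 just inside it. The difference was 0.18 ± 0.12, with an adjusted p of 0.506 by limma.

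Slc48a1, which encodes the phagolysosomal heme transporter, was at −0.15, 0.18 and 0.15 on sham and at 0.58, 0.067 and 0.16 on ICH. Only ICH 1 lay above the sham range. The difference was 0.21 ± 0.19 (adjusted p = 0.592).

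All 9 genes had a mean difference above 0, beside 45.9% of all rows; the smallest, of Hmox2, turned to −0.050 when arrays were centred on their median. Their median difference was 0.22, against −0.039 for all rows. Differences over 2-fold higher were found in 3 of the 9 and in 2.17% of all rows. By limma, 0 of the 9 were called at an adjusted p under 0.05, as were 0.00% of all rows. At an unadjusted p under 0.05, 1 of the 9 was higher and 0 lower, beside 6.16% and 8.56% of all rows.

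The number of the 9 genes outside the sham range differed between the ICH arrays. On ICH 1, 8 lay above the sham range and 0 below, against 36.1% and 37.1% of all rows. On ICH 2, 6 lay above and 1 below, against 36.3% and 45.8%. On ICH 3, 2 lay above and 2 below, against 27.8% and 37.4%. Their median relative to the sham mean was 0.52, 0.36 and 0.089 on ICH 1, 2 and 3. Without ICH 3, both ICH arrays lay above every sham array for 5 of the 9 (Hmox1, Blvrb, Hpx, Cd163 and Lrp1), beside 19.4% of all rows. ICH 3 was singled out because several of these genes were sham-like on it, so this count describes the arrays and nothing is read from it. ICH 2 and ICH 3 shared a row of the slide, and ICH 1 shared the other with the sham arrays. No sham array lay in the row of ICH 2 and ICH 3, so slide row and group cannot be told apart on them.

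**Figure D3:**
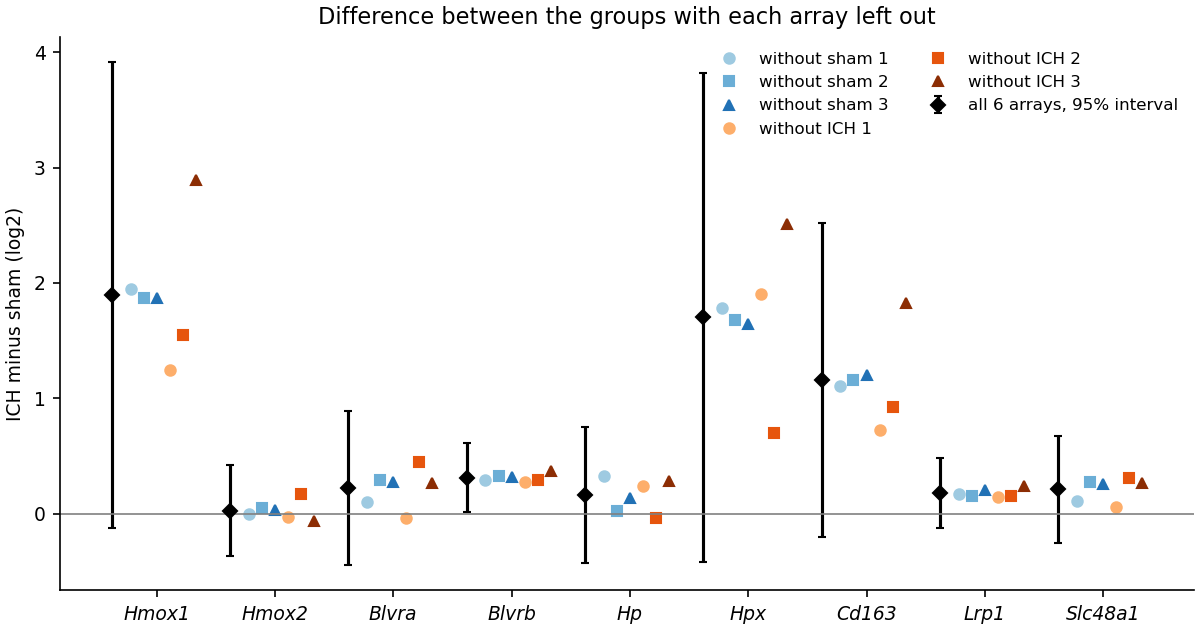
Mean ICH minus sham difference (log2, y axis) for each gene from all 6 arrays, with its 95% interval as a bar, and with each array left out in turn as points. Hmox1, Hpx and Cd163 move most, upward without ICH 3 to 2.90, 2.51 and 1.82 and downward to 1.24 (Hmox1, without ICH 1), 0.70 (Hpx, without ICH 2) and 0.72 (Cd163, without ICH 1), and the other genes stay between −0.064 and 0.45.

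The 5 genes whose values over the 6 arrays lay nearest to those of Hmox1, by root mean square distance, were Slc11a1 (0.322), Cd300c2 (0.358), Cd300le (0.366), Igsf6 (0.368) and Gpnmb (0.373). Slc11a1 encodes a phagosomal metal transporter, and was at 2.63, 2.49 and −0.023 relative to sham on ICH 1, 2 and 3. Gpnmb, a glycoprotein of activated macrophages, was at 2.40, 2.49 and 0.045. For Hp the nearest were Ggn, Raph1, Osmr, Tmbim7 and Lama1, at distances of 0.0226 to 0.0771.

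Myeloid markers were high on the same arrays as Hmox1, Cd163 and Hpx. All 13 monocyte and activated myeloid markers had a mean above sham, with a list median per array of −0.29 to 0.24 on sham and 1.78, 2.47 and −0.37 on ICH 1, 2 and 3. Perivascular macrophage markers other than Cd163 (5 of 8 measured, 5 higher) read −0.053 to 0.15 on sham and 1.17, 0.96 and −0.20 on ICH. Neutrophil markers (6 of 10 measured, 4 higher) read −0.49 to 0.60 on sham and 1.81, 3.20 and −0.0039 on ICH, with Elane and Mmp8 above background on no array. The median of each of the 3 lists on ICH 3 lay within or below its sham range. Of their members 0 were called, as were 0.00% of all rows. Single markers differed from their list: Spp1, Arg1, Trem1 and Cxcr1, chosen after their values were seen, were higher on ICH 3 than on every sham array. Spp1 was at −1.56 on ICH 3 and at most −2.54 on sham, Arg1 at −0.90 and at most −1.72. Trem1, above background on 3 of 6 arrays, was at −7.17 and at most −7.73, and Cxcr1, above it on 4 of 6, at −3.56 and at most −7.21. For Trem1 and Cxcr1 the lowest values were those on sham, and values below background enter the comparison. Trem1 only just met the filter on dim probes, and nothing is read from these 2 markers. Of the first markers in these lists, Ccr2 differed by 0.55 ± 0.44, Cd68 by 0.56 ± 0.50, Mrc1 by 0.23 ± 0.48, Lyve1 by 0.18 ± 0.37, S100a8 by 2.06 ± 1.03 and S100a9 by 1.86 ± 0.91. Their part in the differences of Hmox1, Cd163 and Hpx was not tested.

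The list median of hemoglobin chains and erythroid genes was not split in that way. Of 8 erythroid markers measured, out of 12, 5 were higher, and the list median was −0.40 to 0.62 on sham and 0.45, 0.27 and 0.38 on ICH 1, 2 and 3. Hba-a1 overlapped between groups (0.24 ± 0.28), while Hba-a3 was higher on every ICH array (2.54 ± 0.63, unadjusted p = 0.00643, limma adjusted p = 0.301). Hba-a3 was at −4.72, −6.54 and −5.97 on sham and at −2.96, −2.40 and −4.23 on ICH, so ICH 3 lay above the sham arrays for this chain. Hbb-b1 was at 1.72, 0.64 and 0.76 on sham and at 2.54, 2.55 and 1.80 on ICH. Its difference was 1.26 ± 0.36 (unadjusted p = 0.0123, limma adjusted p = 0.301). The 5 higher markers were all globin chains. The 3 lower were the other markers measured: Slc4a1 (−0.059 ± 0.30), Ahsp (−0.50 ± 0.34) and Klf1 (−0.37 ± 0.23), each overlapping between groups. Of the 8 markers, 2 lay wholly above sham (Hba-a3 and Hbb-b1), beside 11.0% of all rows. For both chains ICH 3 was the lowest ICH array. Rhag was above background on no array.

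The lists for microglia, endothelium, astrocytes and oligodendrocytes held more lower than higher markers, beside 45.9% of all rows higher. Of 8 homeostatic microglia markers measured, out of 9, 3 were higher and 5 lower, a count near that share. P2ry12 was at −1.002 ± 0.353 and Tmem119 at −0.99 ± 0.38, and the microglia list median was −0.35, −0.49 and −0.37 on ICH 1, 2 and 3. Endothelial markers were lower for 6 of 7, among them Cldn5 (−0.35 ± 0.14) and Pecam1 (−0.58 ± 0.22), with list medians of −0.40, −0.51 and −0.36. In both lists the median on each ICH array, ICH 3 included, was lower than on every sham array. Astrocyte markers were lower for 6 of 8 (Aqp4 −0.45 ± 0.13, Gfap 0.52 ± 0.43) and oligodendrocyte markers for 7 of 7 (Mog −0.088 ± 0.30, Mbp −1.09 ± 0.46). The oligodendrocyte list median was −0.31 to 0.11 on sham and 0.38, −0.76 and −0.026 on ICH 1, 2 and 3. ICH 1 thus lay above every sham array for that median and ICH 2 below. Neuron markers split into 4 higher, Snap25 (0.27 ± 0.16) and Syt1 (0.65 ± 0.13) among them, and 3 lower (Map2 −0.41 ± 0.17, Tubb3 −0.59 ± 0.24, Stmn2 −0.12 ± 0.14). Choroid plexus markers were higher for 4 of 7 (Ttr 0.16 ± 0.47, Folr1 0.84 ± 0.90) and ranged from −1.12 to 1.16 among the sham arrays alone.

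**Figure D4:**
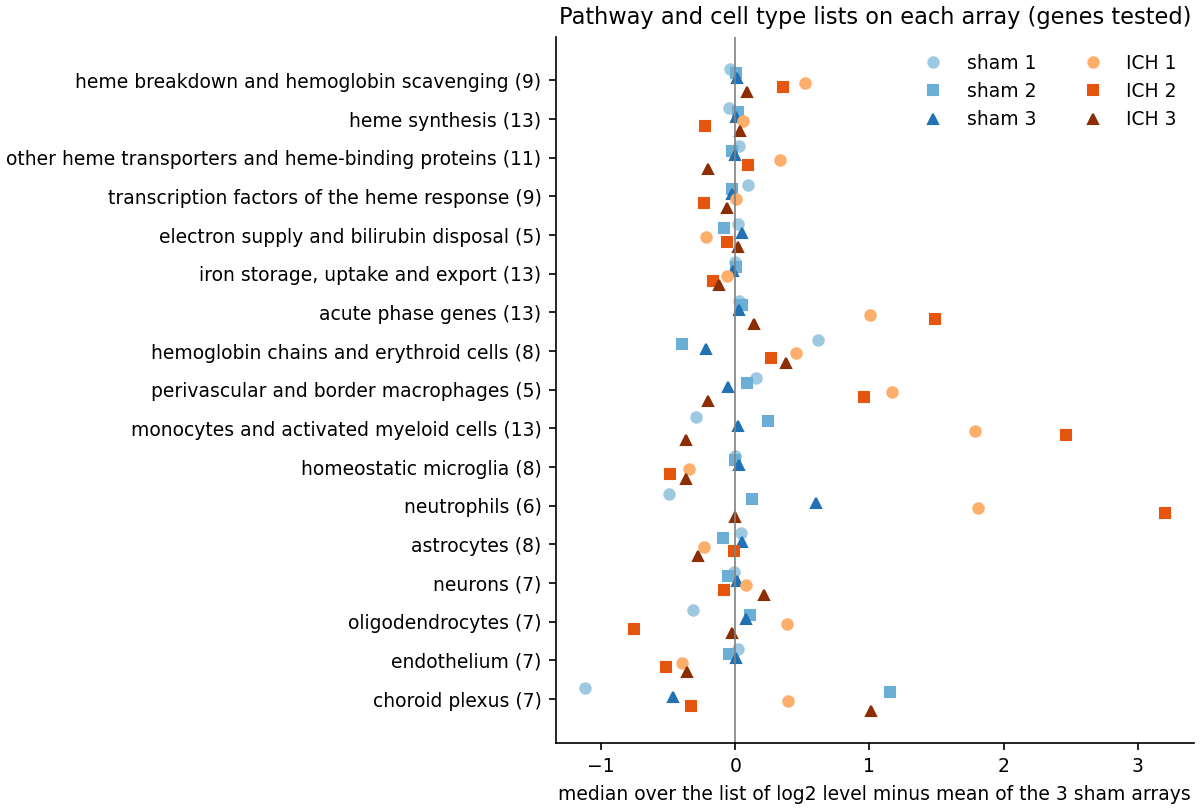
Median over each gene list of the log2 level minus the mean of the 3 sham arrays (x axis), one point per array, with the number of genes tested in brackets. The monocyte, neutrophil, perivascular macrophage and acute phase lists stand highest on ICH 1 and ICH 2, while microglia and endothelium lie below 0 on all 3 ICH arrays.

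Genes of heme synthesis, the step opposite to breakdown, showed no common direction. Heme synthesis enzymes and transporters split into 6 higher and 7 lower of 13, and the median of that list was −0.044. Alas2, the erythroid form of the first enzyme, differed by 1.74 ± 0.62 (unadjusted p = 0.0302, limma adjusted p = 0.314), reading −4.30, −5.73 and −5.44 on sham and −2.26, −3.66 and −4.34 on ICH. ICH 3 lay just below sham 1, so the groups overlapped. Abcb10, a mitochondrial transporter needed for heme synthesis in red cell precursors, differed by −0.72 ± 0.20 and was lower on every ICH array. Among the 13 heme synthesis genes 1 lay wholly above sham and 2 wholly below, beside 11.0% and 16.5% of all rows.

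Of 11 other heme transporters and heme-binding proteins measured, 6 were higher and 5 lower. Flvcr2, a transporter of the brain endothelium first described for heme, was at −0.61, −0.86 and −0.74 on sham and at −1.32, −1.89 and −1.09 on ICH (−0.69 ± 0.23, adjusted p = 0.304). Abcg2, an efflux pump of the blood-brain barrier that also carries porphyrins, was at 0.51, 0.26 and 0.26 on sham and at 0.04, −2.14 and −1.29 on ICH (−1.47 ± 0.53, adjusted p = 0.314). In the list of 11, 2 genes lay wholly above sham and 3 wholly below, beside 11.0% and 16.5% of all rows. Flvcr2 and Abcg2 were lower on each ICH array, ICH 3 included, as the endothelial list was. The part of endothelial content in these values was not tested.

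Of the regulators of Hmox1, 0 were called, as were 0.00% of all rows. Of 9 transcription factors measured, 4 were higher and 5 lower. Nfe2l2, which encodes NRF2, an activator of Hmox1, differed by 0.12 ± 0.21, and Bach1, the heme-sensing repressor, by −0.24 ± 0.24 from a probe above background on 3 of 6 arrays. Bach2, the related repressor known from B cells and also present in neurons, was at −1.39, −1.82 and −2.22 on sham and at −3.68, −3.50 and −3.04 on ICH. Its groups did not overlap, with ICH 3 on the side of the other ICH arrays (−1.60 ± 0.27, unadjusted p = 0.000992, limma adjusted p = 0.214). Among the 9 transcription factors 1 lay wholly above sham and 2 wholly below, beside 11.0% and 16.5% of all rows. Nr1d1, a nuclear receptor that binds heme, differed by 0.35 ± 0.16.

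The products of heme breakdown also have their own handling genes. Of 13 iron genes, 4 were higher and 9 lower, beside 45.9% of all rows higher. Ftl1, the ferritin light chain (−0.35 ± 0.14), and Tf, transferrin (−0.62 ± 0.20), were each lower on every ICH array. Among the 13 iron genes 1 lay wholly above sham and 2 wholly below, beside 11.0% and 16.5% of all rows. Of 5 genes for electron supply and bilirubin disposal, 2 were higher and 3 lower, with Abcc1 at −0.34 ± 0.14 and Slco1a4 at −0.53 ± 0.29. The acute phase list, to which Hp and Hpx belong in liver but which was counted without them, had 11 of 13 higher and a median of 0.76. Relative to the sham mean, its median per array was 1.01, 1.49 and 0.14 on ICH 1, 2 and 3. Serpina3n, a protease inhibitor, led it at 5.82 ± 1.57 (limma adjusted p = 0.301), and Cebpb, a transcription factor that binds C/EBP motifs, differed by 0.81 ± 0.23.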

How the data were processed

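RNA from 3 sham and 3 ICH rats, extracted with TRIzol and labelled with Cy3 after linear amplification per the labels' protocols, was hybridized to single-colour Agilent arrays. Per the file headers, intensity values were background-subtracted with Feature Extraction 11.5.1.1, while the submitters' processing notes name version 10.7. Spot flags for background, saturation and uniformity hold a score of 0 or 1 per the file headers. The deposited log2 table equals the levels used here plus a constant per array (0.284 to 0.323), within 0.001 for 98.5% to 99.3% of probes; no source used here states how it was centred.

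Control spots were left out, marked spots (1 to 9 per array) were set to missing, and log2 intensity was taken relative to the array's 75th percentile, then averaged over a probe's spots. Probes were kept if at least 0.5 of their spots were well above background on at least 3 of 6 arrays. Symbols came from RefSeq (GRCr8): 18355 of 30367 probes had 1, 0 had several and 12012 none. Per symbol the brightest probe was used. Groups were compared with limma 3.58.1 in R 4.3.3 (lmFit, eBayes, two-sided, 6.12 degrees of freedom) and Benjamini-Hochberg adjustment over 22179 rows. The fit was tested on simulated data that had the sham spread in both groups. That test does not cover the wider spread between the ICH arrays. The labels call the arrays biological replicates.

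The genes, lists and tests were chosen with earlier results of these data known. Named beside the list members were, per pathway list, the 2 genes with the lowest unadjusted p, per cell type list the first 2 measured, and the 5 genes nearest to Hmox1 and to Hp. Nfe2l2, Bach1, Hbb-b1, Slc4a1, Ahsp, Klf1, Map2, Tubb3, Stmn2 and the markers above background on no array were named after their values were seen. No sample label pairs the samples by replicate number. Deviations of same-numbered arrays correlated at −0.19 to 0.07, which cannot exclude a pairing with so few arrays. Alternatives were normexp (offset 50, on median signals, since the files hold no mean), quantile, median and spike-in centring, the deposited values, other filters, the mean of probes, trended variance, array weights, the replicate number or slide row as a block, and each array left out. Counts of non-overlapping genes with an array left out were added after seeing the data. All arrays share 1 slide and 1 scan, so neither could be a block. Promoters were searched with Python 3.11.15.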

Additional observations from a re-analysis of the deposited data

How the results depend on the processing

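The direction was the same under all 19 alternatives for Hmox1 (1.24 to 3.20), Hpx (0.70 to 2.51), Cd163 (0.72 to 2.02), Blvrb (0.20 to 0.71), Lrp1 (0.10 to 0.58) and Slc48a1 (0.054 to 0.61). It turned for Hmox2 under median centring (−0.050) and with single arrays left out (−0.064 to 0.17), for Blvra without ICH 1 (−0.042 to 0.45 over the arrays left out) and for Hp without ICH 2 (−0.039 to 0.32); the cause was not tested. Only Hmox1 without ICH 3 passed the threshold, and ICH 3 was singled out because genes such as Hmox1 were sham-like on it. Over all 19 alternatives the limma adjusted p of Hmox1 ran from 0.0446 to 0.740. Rows called, 0 in the reported fit, came to 3 with normexp, 23 with spike-in centring, 2 with the filter on all 6 arrays, 3 with trended and robust variance, 6 with array weights and 0 to 36 with an array left out. Genes of the 9 higher at an unadjusted p under 0.05, 1 as reported, came to 2 with normexp, 0 with median centring, 5 with spike-in centring, 0 with the deposited values, 0 without the filter, 0 with the mean of probes, 2 with trended variance, 3 with the slide row as a block and 0 to 4 with an array left out. The median of the 9 was 0.62 with spike-in centring, where that of all rows was 0.36, and 0.52 with slide row as a block, which compares ICH 1 alone with sham. With an array left out, 0 to 1 of the 9 were called and 1 to 5 had no overlap. With the replicate number as a replicate block, 0 rows were called and the median was 0.22. Whether the numbers pair the samples is not known. The 3 arrays per group, and 1 spot per array for Hpx and for the reported Blvrb probe, limit what can be detected.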
